A study of Mus musculus with 7 samples.

Results

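Interferon response genes were taken as every gene whose symbol, in the platform's annotation of probe sets that name a single gene, belongs to the Irf, Ifi, Ifih1, Ifit, Ifitm, Gbp, Oas, Mx, Isg, Usp18, Stat2 or Rsad2 names. This rule found 48 genes with 62 probe sets, of 12393 named genes in all, and where a gene had several probe sets the brightest one stood for it. Of the 48 genes, 36 passed a filter on dim genes and were tested, and 12 were too dim to test. Isg15, whose probe set also names another gene, is not analysed here. One of the 48, Irf2bp1, encodes a corepressor that binds IRF2 and is no interferon regulatory factor itself. Values are log2 expression levels, so a difference of 1 is a 2-fold difference, and levels of different genes are not set against each other because probes differ in brightness.

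The arrays measured RNA of living green-fluorescent tumour cells sorted from mouse gliomas. Gliomas had been started on postnatal days 1 to 3 by injecting the brain with RCAS PDGFB GFP, a retroviral vector of birds that carries a platelet-derived growth factor gene and a fluorescent marker and enters only cells that express the receptor tv-A, here under the Nestin promoter. The genotypes compared were these: Ptprd-/-p16-/- (null, 3 arrays), Ptprd+/-p16-/- (heterozygous, 2 arrays) and Ptprd+/+p16-/- (wild type, 2 arrays), so all mice lacked p16, also those of the wild-type group. All were of a mixed C57/BL6 and FVB/N background, and mice were followed until symptoms or until 12 weeks. The replicates are named biological, but nothing says that each came from a single mouse, so a p-value speaks only of the spread among these arrays. In sorted bulk RNA, fewer cells of a type and less RNA per cell cannot be told apart.

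Interferons are secreted proteins, many of which cells release on contact with viral or misplaced nucleic acid. They bind receptors whose JAK kinases phosphorylate transcription factors such as STAT2. With IRF9, STAT2 acts at the interferon-stimulated response element, and interferon gamma acts through the gamma-activated site. The target genes encode antiviral effectors, GTPases of the Mx and Gbp families, RNA sensors, and feedback inhibitors such as USP18. In the brain, microglia and glial tumour cells can both respond to interferon.

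Several facts of the arrays bear on what follows. Correlations between arrays over all probe sets other than controls lay between 0.976 and 0.987 for pairs with 1 heterozygous array, and between 0.990 and 0.995 for all pairs of null and wild-type arrays, so the heterozygous arrays stood apart. Heterozygous replicate 1 and null replicate 1 carried both Xist, which coats the inactive X, and Y-linked transcripts, which no other array did. Ptprd itself was at 8.95 to 9.93 on the null arrays and at 9.42 to 9.57 on the heterozygous arrays, against 10.86 to 10.89 on the wild-type arrays, so it separated wild type from the others and not null from heterozygous. Whether its probe set lies in the deleted part is not known here. Markers of the oligodendrocyte-progenitor state of these gliomas were bright on every array, with Pdgfra at 12.90 or above, Sox10 at 11.30 or above and Olig2 at 10.78 or above.

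The letters of the interferon-stimulated response element were frequent in the promoters of these genes. RefSeq promoter sequences of the assembly GRCm38.p6 were found for 37 of the 48 genes, and the 250 bases before each start were searched on both strands for GAAANNGAAA, which reads TTTCNNTTTC on the other strand. It was present in 13 of 37 genes (35.1%), against 936 of 27025 genes with a promoter sequence (3.46%). The gamma-activated letters TTCNNNGAA, the same on both strands, were present in 10 of 37 genes (27.0%), against 2197 of 27025 (8.13%). In 0 of the genes did matches of these letters overlap between both motifs. Genes of a family lie next to each other and share ancestry, so they are not independent cases, and a match describes letters, not a site in use. The stretches around the match are shown for 8 of the 10 tested genes that hold it. Each reads 5′ to 3′ on the strand of its gene, with the letters GAAANNGAAA or TTTCNNTTTC in capitals. They are Ifit1 at chr19:34640765-34640833 on the plus strand, Ifit3 at chr19:34583353-34583436 on the plus strand, Gbp2 at chr3:142620584-142620633 on the plus strand, Gbp3 at chr3:142559979-142560034 on the plus strand, Gbp7 at chr3:142530263-142530312 on the plus strand, Oas1a at chr5:120907526-120907565 on the minus strand, Rsad2 at chr12:26456543-26456592 on the minus strand and Ifitm2 at chr7:140955978-140956027 on the minus strand.
Ifit1: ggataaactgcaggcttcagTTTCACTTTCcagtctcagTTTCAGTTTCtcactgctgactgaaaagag
Ifit3: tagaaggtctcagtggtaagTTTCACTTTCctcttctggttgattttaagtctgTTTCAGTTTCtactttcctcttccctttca
Gbp2: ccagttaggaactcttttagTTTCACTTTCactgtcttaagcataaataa
Gbp3: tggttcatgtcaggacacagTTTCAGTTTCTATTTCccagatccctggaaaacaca
Gbp7: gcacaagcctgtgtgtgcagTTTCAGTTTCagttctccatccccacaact
Oas1a: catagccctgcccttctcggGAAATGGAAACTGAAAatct
Rsad2: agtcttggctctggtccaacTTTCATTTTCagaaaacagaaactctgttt
Ifitm2: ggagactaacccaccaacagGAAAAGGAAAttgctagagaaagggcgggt

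Ifit1 and Ifit3, neighbours on chromosome 19, each held 2 matches, and Ifit2, the third gene of that cluster, held 0 in both of its windows. In Gbp3 and Oas1a, 2 matches overlapped each other. The windows of Ifitm3, Irf7, Irf9, Ifih1, Oasl2, Ifi35 and Ifi47 held 0 matches, which says only that these letters are not in the 250 bases. Irf1 and Irf8 are shown with TTCNNNGAA in capitals because they encode factors of the pathway, Irf1 at chr11:53769904-53769952 on the plus strand and Irf8 at chr8:120736167-120736233 on the plus strand, with 1 and 2 matches.
Irf1: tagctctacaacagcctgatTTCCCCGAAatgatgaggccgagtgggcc
Irf8: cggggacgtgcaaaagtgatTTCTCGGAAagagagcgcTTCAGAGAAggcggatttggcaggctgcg

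The comparison of heterozygous with wild-type cells asks how loss of 1 Ptprd allele goes with the interferon response. Of the 36 genes tested, 5 rose and 1 fell in heterozygous cells, and 30 did not pass the threshold of an adjusted p of 0.05 (limma, Benjamini-Hochberg over 9243 genes). Ifitm2, Ifitm3, Gbp2, Mx2 and Irf8 rose and Ifit2 fell. Of all genes tested, 4.2% rose and 5.95% fell. The median log2 difference of the 36 genes was 0.79, against -0.04 for all genes, and 27 of the 36 lay above 0, against 44.8% of all genes. Because a gene entered the test when 2 arrays were bright enough, genes that are high only in heterozygous cells could pass, and without a filter the median over the 48 genes was 0.49. It was 0.46 without heterozygous replicate 1. Both heterozygous arrays lay above both wild-type arrays in 23 of the 36 genes and below them in 5, against 26.2% and 35.1% of all genes. At an unadjusted p under 0.05, 16 were higher and 2 lower, against 12.7% and 17.2% of all genes. The number that rose was 9 when heterozygous replicate 2 was left out (3.72% of all genes) and 1 when wild type replicate 2 was (0.249% of all genes), the extremes over the 7 arrays. Leaving out wild type replicate 1 gave 2 (1.11% of all genes), heterozygous replicate 1 gave 3 (1.07%) and null replicate 3 gave 3 (3.08%). When a heterozygous or wild-type array is left out, its genotype has 1 array, which is assumed to vary like the other arrays, so the p-value holds no spread of that genotype's own.

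Interferon-induced transmembrane proteins, which block the entry of viruses through membranes, were tested in 4 members, of which Ifitm2 and Ifitm3 rose. Ifitm3 was at 10.93 and 9.86 on the heterozygous arrays, against 7.17 and 7.57 on the wild-type arrays. Both heterozygous arrays were above both wild-type arrays, and the difference was 8.13-fold (log2 difference 3.02 ± 0.36, SE, limma adjusted p = 0.00832). Ifitm2 was at 6.13 and 6.22 on the heterozygous arrays, against 4.61 and 4.76 on the wild-type arrays, and its arrays within a group lay close together. Its log2 difference was 1.49 ± 0.11 (SE, limma adjusted p = 0.00248), or 2.80-fold, taken against a wild-type level under the limit for dim genes on both wild-type arrays (the 30th percentile of the array, 4.84 and 4.82), so the exact fold is uncertain. Ifitm2 kept its call without any 1 of the 7 arrays, while Ifitm3 lost its call without wild type replicate 2 (log2 difference 3.22, adjusted p = 0.0642). Ifitm1 was at 6.45 and 6.21 on the heterozygous arrays, against 5.69 and 5.65 on the wild-type arrays, with no overlap, but did not pass the adjustment (log2 difference 0.66 ± 0.20, adjusted p = 0.0764). It passed without null replicate 2 (0.0394). Ifitm10, which lies on the same chromosome, was at 7.32 and 7.83, against 7.93 and 8.17 on the wild-type arrays (log2 difference -0.48, 95% interval -1.14 to 0.19).

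Guanylate-binding proteins are GTPases that act against intracellular pathogens and are strong targets of interferon gamma. Gbp2 was at 8.53 and 7.12 on the heterozygous arrays, against 5.03 and 5.27 on the wild-type arrays. The groups did not overlap, and the difference was 6.39-fold (log2 difference 2.68 ± 0.43, SE, limma adjusted p = 0.0162), with 2.90 in the other probe set of the gene. The probe set used for Gbp2 is of a kind that may match related transcripts. Gbp2 lost its call when either wild-type array was left out (adjusted p = 0.0829 without replicate 1 and 0.1 without replicate 2). The heterozygous arrays were 1.40 apart for Gbp2, 1.48 for Gbp3, 1.33 for Gbp7 and 2.43 for Gbp6. Gbp6 was at 8.23 and 5.79 on the heterozygous arrays, against 5.07 and 6.06 on the wild-type arrays, so heterozygous replicate 2 lay below wild type replicate 2. Gbp3 was at 10.04 and 8.56, against 7.41 and 8.28 on the wild-type arrays. Gbp7 was at 10.99 and 9.66, against 9.25 and 9.83 on the wild-type arrays. Their log2 differences of 1.45, 1.45 and 0.79 for Gbp6, Gbp3 and Gbp7 did not pass the threshold (adjusted p = 0.294, 0.169 and 0.249). Gbp7 passed with replicate 1 as the lone heterozygous array (log2 difference 1.45, adjusted p = 0.0427).

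Among the other genes, Mx2, of the Mx family of GTPases, was at 6.55 and 6.31 on the heterozygous arrays, against 5.60 and 5.69 on the wild-type arrays. It rose by 0.79 ± 0.16 (log2, SE, limma adjusted p = 0.0321), with no overlap. The call was lost without either wild-type array, either heterozygous array or null replicate 3 (adjusted p between 0.0501 and 0.165). Ifit2, a protein that binds viral RNA, went the other way, at 9.70 and 9.71 on the heterozygous arrays, against 10.16 and 10.24 on the wild-type arrays. It fell by 0.50 ± 0.12 on the log2 scale (SE, limma adjusted p = 0.0489), and the call ended without any 1 array other than null replicate 2 (adjusted p between 0.0537 and 0.238) and with arrays centred on their median (0.0605).

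Ifit1 and Ifit3, which share with Ifit2 the repeats that bind RNA, differed from it. Ifit1 was at 9.32 and 8.37 on the heterozygous arrays, against 6.65 and 7.99 on the wild-type arrays (log2 difference 1.52 ± 0.47, adjusted p = 0.0809). Ifit3 was at 9.45 and 8.28, against 7.15 and 8.25 on the wild-type arrays (1.17 ± 0.45, adjusted p = 0.138). For both genes heterozygous replicate 1 was highest and wild type replicate 1 lowest of the 7 arrays, while heterozygous replicate 2 and wild type replicate 2 differed by 0.38 for Ifit1 and 0.04 for Ifit3.

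**Figure D1:**
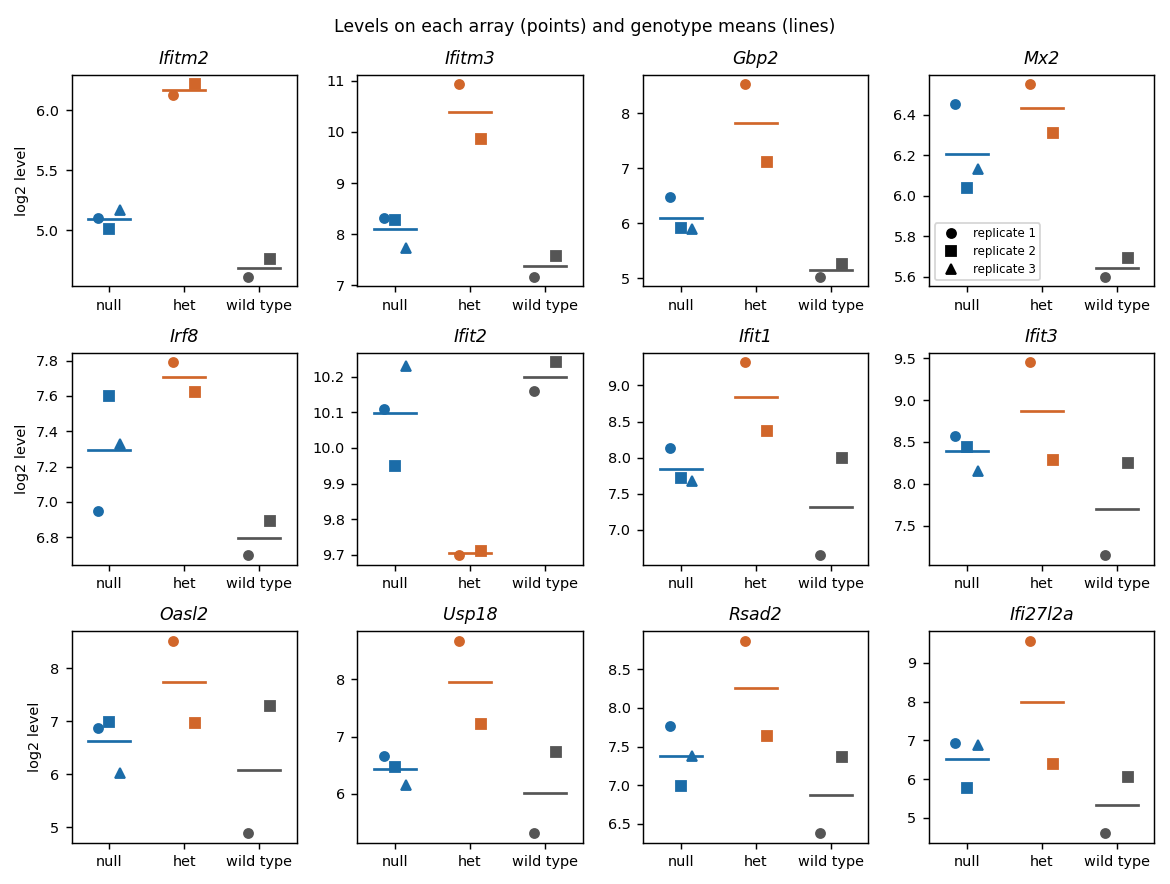
Log2 levels of 12 genes on each array, in null, heterozygous (het) and wild-type cells. Points are arrays with their replicate number as the symbol, lines are genotype means, and each panel has its own axis; Ifitm2, Ifitm3, Gbp2, Mx2, Irf8 and Ifit2 passed the threshold in heterozygous against wild-type cells and the other 6 did not.

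Oligoadenylate synthetases make a messenger that activates an RNA-degrading enzyme. Oas1a was at 8.53 and 6.82 on the heterozygous arrays, against 6.09 and 6.65 on the wild-type arrays (log2 difference 1.30 ± 0.52, adjusted p = 0.149). Oasl2, a related protein, was at 8.52 and 6.97, against 4.89 and 7.28 on the wild-type arrays. Its wild-type arrays were 2.39 apart, more than the log2 difference of 1.66 ± 0.81 between the genotypes (adjusted p = 0.22). Oas1b, Oas1e, Oas2 and Oasl1 had differences between -0.08 and 0.38, none of them past the threshold. Oas1b passed with replicate 1 as the lone heterozygous array (log2 difference 0.68, adjusted p = 0.0441), and so did Oas1a (2.16, adjusted p = 0.0311), both being highest on that array.

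Usp18, a protease that removes the ubiquitin-like protein ISG15 and damps the receptor, was at 8.68 and 7.22 on the heterozygous arrays, against 5.31 and 6.73 on the wild-type arrays. Rsad2, the antiviral enzyme viperin, was at 8.87 and 7.64, against 6.38 and 7.37 on the wild-type arrays. Ifih1, a cytoplasmic sensor of viral RNA, was at 8.42 and 7.32, against 6.02 and 7.10 on the wild-type arrays. In all 3 genes the groups did not overlap, heterozygous replicate 1 was highest and wild type replicate 1 lowest. Their log2 differences were 1.93 ± 0.57 for Usp18, 1.38 ± 0.48 for Rsad2 and 1.31 ± 0.42 for Ifih1 (SE, limma adjusted p = 0.0737, 0.109 and 0.0932). Only the first passed with replicate 1 as the lone heterozygous array (Usp18, 2.66, adjusted p = 0.0476). The 2 other probe sets of Rsad2 differed by 1.10 and 1.12.

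Ifi27l2a, a small membrane protein, had the widest range of the 48 genes over the 7 arrays, 4.95. It was at 9.57 and 6.38 on the heterozygous arrays, against 4.61 and 6.05 on the wild-type arrays, so its heterozygous arrays were 3.19 apart and its difference of 2.64 ± 1.00 did not pass (adjusted p = 0.131). With replicate 1 as the lone heterozygous array, the array on which it was highest, the difference was 4.24. Its value on wild type replicate 1 lay under the limit for dim genes (4.84), so the exact size of both differences is uncertain. Ifi47, a GTPase of the immunity-related family, was at 10.01 and 8.45, against 7.02 and 7.59 on the wild-type arrays (1.93 ± 0.64, adjusted p = 0.0971). Ifi35 was at 8.25 and 7.25, against 5.55 and 6.94 on the wild-type arrays (1.51 ± 0.50, adjusted p = 0.0971). Ifi30, a thiol reductase of lysosomes, and Ifi27l2b had ranges of 0.22 and 0.32 over the 7 arrays. Isg20, an RNA exonuclease, was at 5.29 and 5.05 on the heterozygous arrays, against 4.71 and 4.88 on the wild-type arrays (0.38 ± 0.20, adjusted p = 0.245). On wild type replicate 1 Isg20 also lay under the limit for dim genes.

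Among the transcription factors of the pathway, ranges over the 7 arrays lay between 0.28 for Irf5 and 1.51 for Irf7. Irf8, a factor known in myeloid cells, was at 7.79 and 7.62 on the heterozygous arrays, against 6.70 and 6.89 on the wild-type arrays. It rose by 0.91 ± 0.21 (log2, SE, limma adjusted p = 0.0413), with 1.02 in its other probe set, and the call ended without either wild-type array, either heterozygous array or null replicate 3 (adjusted p between 0.0648 and 0.196). Irf7, which amplifies interferon production, was at 6.28 and 5.55 on the heterozygous arrays, against 4.77 and 5.28 on the wild-type arrays (0.89 ± 0.27, adjusted p = 0.0788). With replicate 1 as the lone heterozygous array the difference of Irf7 was 1.26. Its value on wild type replicate 1 lay under the limit for dim genes (4.84), so the exact size is uncertain. Irf9, the DNA-binding partner of STAT2, was at 8.82 and 8.29, against 7.61 and 8.27 on the wild-type arrays (0.61 ± 0.29, adjusted p = 0.203).

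Irf1, an early target of interferon gamma, was at 8.67 and 8.27 on the heterozygous arrays, against 8.05 and 8.27 on the wild-type arrays (0.31, 95% interval -0.16 to 0.79). Stat2 was at 6.14 and 5.81, against 5.64 and 5.83 on the wild-type arrays (0.24, 95% interval -0.12 to 0.60). Irf2, a repressor of interferon targets, was at 7.06 and 7.04, against 7.26 and 7.44 on the wild-type arrays (-0.30, 95% interval -0.61 to 0.01), and its corepressor partner Irf2bp1 was at 6.75 and 6.69, against 7.03 and 7.01 (-0.30, adjusted p = 0.107). These 2 lay lower on both heterozygous arrays without passing the threshold. Irf3, the factor that starts interferon production after RNA sensing, was at 8.28 and 8.63, against 8.57 and 8.66 on the wild-type arrays (-0.16, 95% interval -0.48 to 0.16). Its 3 other probe sets differed by -0.33 to -0.26. Irf5 was at 5.49 on both heterozygous arrays, against 5.31 on both wild-type arrays (0.18, 95% interval -0.05 to 0.41), and differed by -0.10 in its other probe set.

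**Figure D2:**
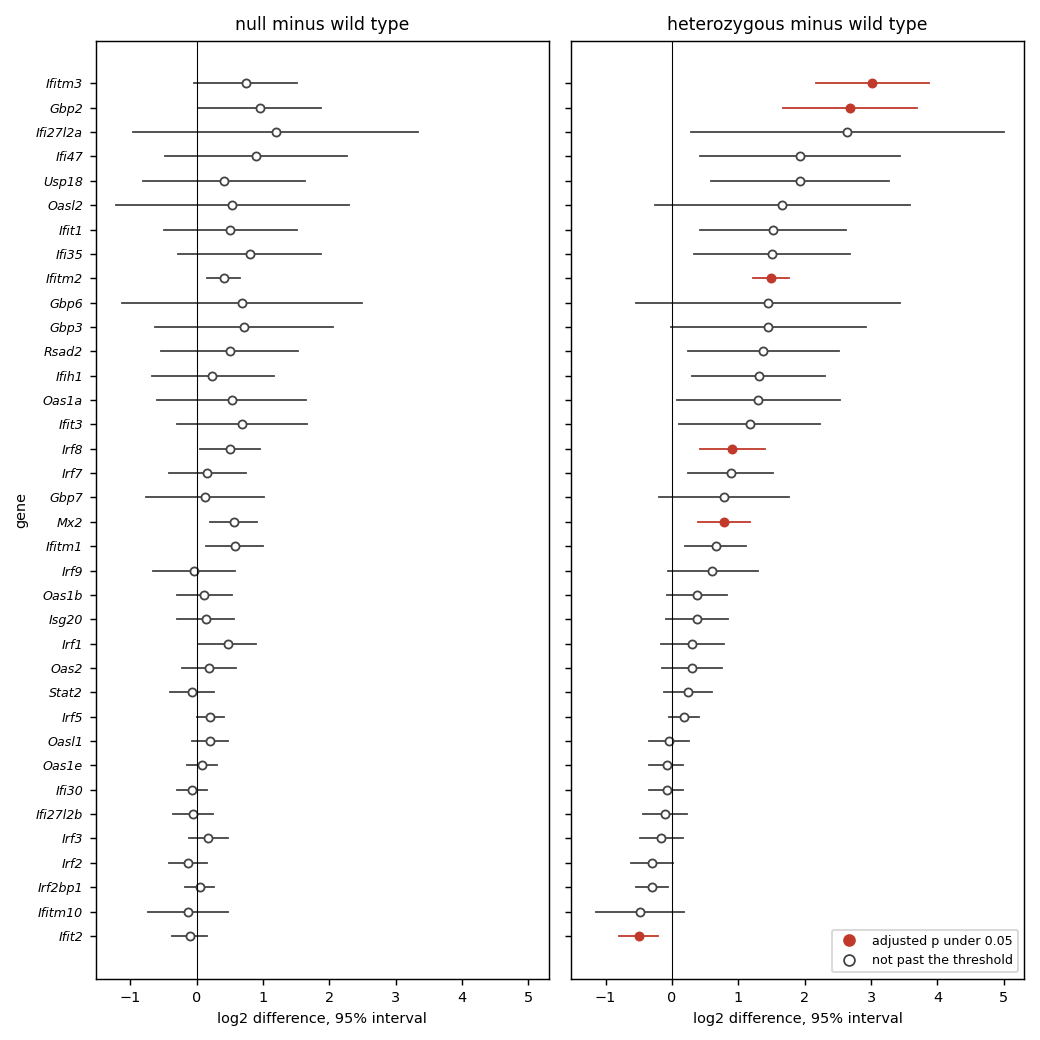
Log2 differences of the 36 tested genes for null minus wild type (left) and heterozygous minus wild type (right), with 95% intervals of the limma fit as lines. Filled red points passed an adjusted p of 0.05; 6 genes did so on the right and 0 on the left, and the wide intervals belong to genes whose arrays differed within a genotype.

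Arrays of the same genotype differed more in these genes than in most others. The arrays of a genotype also differed in Xist and Y-linked transcripts, and the part of this in the gaps was not tested. Heterozygous replicate 1 exceeded replicate 2 by more than 1 on the log2 scale in 13 of 36 genes, against 1.27% of all 9243 genes tested. Its highest such gaps were those of Ifi27l2a (3.19) and Gbp6 (2.43). Wild type replicate 2 exceeded replicate 1 by more than 1 in 7 of 36 genes, against 0.519% of all genes, with 2.39 for Oasl2 and 1.43 for Ifi27l2a. Heterozygous replicate 1 held the highest value of the 7 arrays in 22 of 36 genes (20% of all genes) and wild type replicate 1 the lowest in 23 of 36 (11.8% of all genes).

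When the second replicates alone are set side by side, heterozygous replicate 2 exceeded wild type replicate 2 by a median of 0.17 over the 36 genes, with 23 above 0 (44.8% of all genes) and 3 above 1 (3.6% of all genes). These 3 were Ifitm3 (2.29), Gbp2 (1.86) and Ifitm2 (1.45). Both second replicates carried Xist without Y-linked transcripts, unlike the first replicates. Ifi47 (0.87), Irf8 (0.73) and Mx2 (0.62) followed. For Oasl2, Gbp6 and Gbp7 this difference was below 0, at -0.31, -0.26 and -0.17. The genes thus fell along a range between those with both heterozygous arrays well above wild type, such as Ifitm2, and those in which heterozygous replicate 1 alone stood out, such as Gbp6. Among tested genes with a promoter sequence, heterozygous replicate 1 was highest in 8 of 10 with the GAAANNGAAA letters and in 9 of 18 without them, and the median differences of heterozygous from wild-type cells were 1.34 and 0.50. Ifitm3 and Irf8 were among the 18, Ifitm2 and Gbp2 among the 10. Of the 8 tested genes without a promoter sequence, among them Ifi27l2a, Usp18 and Gbp6, 5 were highest on that array, and their median difference was 0.58. Genes of a family are not independent cases, and a link between the letters and the levels was not tested.

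**Figure D3:**
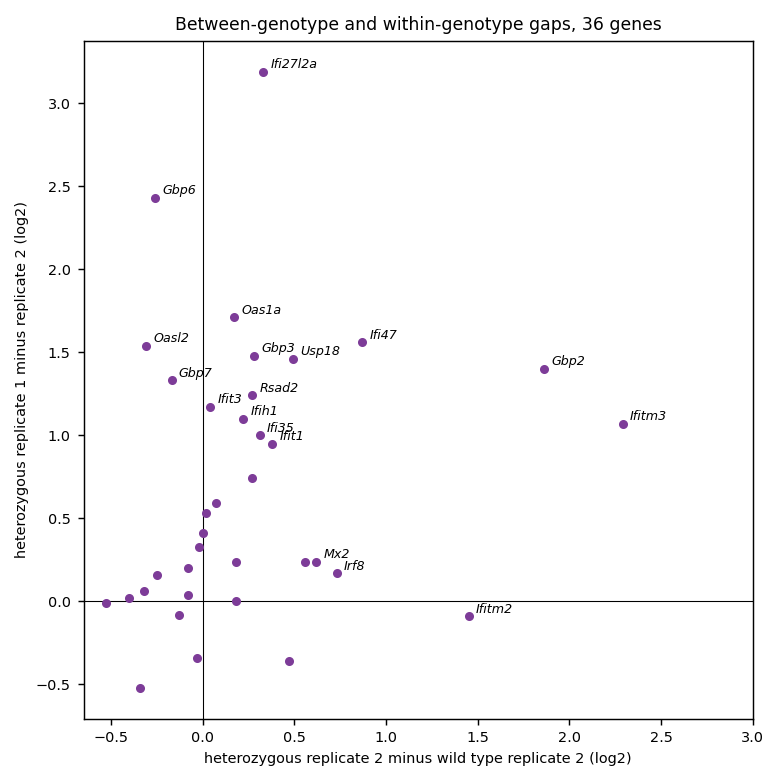
Each point is 1 of the 36 tested genes. The horizontal axis is heterozygous replicate 2 minus wild type replicate 2 and the vertical axis heterozygous replicate 1 minus replicate 2 (both log2); Ifitm3, Gbp2 and Ifitm2 lie to the right, and Ifi27l2a, Gbp6, Oas1a and Oasl2 lie high with little horizontal difference.

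**Figure D4:**
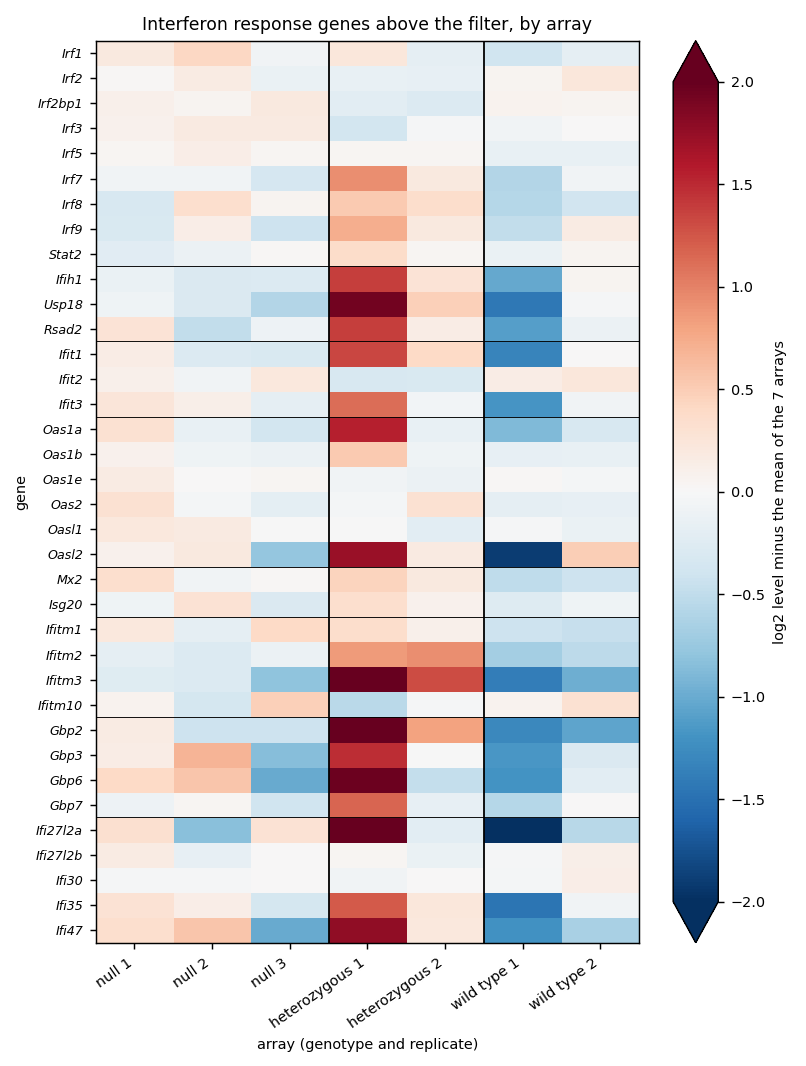
Log2 level of each of the 36 tested genes (rows, grouped by role) on each array (columns, with null, heterozygous and wild-type cells from left to right), as the difference from the gene's mean over the 7 arrays; colours saturate at 2 in either direction. The column of heterozygous replicate 1 is high for most effectors and that of wild type replicate 1 is low.

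The comparison of null with wild-type cells asks about loss of both alleles. With limma, 0 of the 36 genes passed the threshold, as did 0% of all 9243 genes in either direction, and 6 had an unadjusted p under 0.05, all of them higher in null cells (2.75% of all genes were higher and 2.39% lower at that limit). An unmoderated linear model also called 0 of them. Their median log2 difference was 0.33, against 0.00 for all genes. It was 0.11 without wild type replicate 1 and 0.52 without wild type replicate 2. All 3 null arrays lay above both wild-type arrays in 11 genes, against 10.7% of all genes, and below both in 0, against 11% of all genes.

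The genes that rose in heterozygous cells had smaller differences from wild type here. Ifitm2 was at 5.10, 5.01 and 5.17 on the null arrays, against 4.61 and 4.76 on the wild-type arrays (log2 difference 0.41 ± 0.10, SE, limma adjusted p = 0.882). Mx2 was at 6.45, 6.04 and 6.13, against 5.60 and 5.69 on the wild-type arrays (0.56 ± 0.15, adjusted p = 0.882). Ifitm1, which had not passed the threshold in heterozygous cells, was at 6.31, 5.92 and 6.51, against 5.69 and 5.65 on the wild-type arrays (0.58 ± 0.18, adjusted p = 0.882). In these genes every null array was above every wild-type array, but the differences did not pass the adjustment over all genes. Gbp2 was at 6.48, 5.91 and 5.90, against 5.03 and 5.27 on the wild-type arrays (0.95, 95% interval 0.02 to 1.87). Ifitm3 was at 8.31, 8.28 and 7.74, against 7.17 and 7.57 on the wild-type arrays (0.74, 95% interval -0.04 to 1.51).

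Irf8 was at 6.95, 7.60 and 7.33 on the null arrays, against 6.70 and 6.89 on the wild-type arrays (0.50, 95% interval 0.05 to 0.95). Irf1 was at 8.64, 8.86 and 8.37, against 8.05 and 8.27 on the wild-type arrays (0.47, 95% interval 0.03 to 0.90). The 95% intervals given for this comparison are not adjusted for the number of genes, and 0 of the 36 genes passed the adjustment. Ifit1 and Usp18, whose wild-type arrays lay far apart, had intervals that held 0. Ifit1 was at 8.13, 7.71 and 7.67, against 6.65 and 7.99 on the wild-type arrays (0.51, 95% interval -0.49 to 1.52), with null replicate 1 above both wild-type arrays and the other null arrays between them. Usp18 was at 6.66, 6.46 and 6.16, against 5.31 and 6.73 on the wild-type arrays (0.41, 95% interval -0.81 to 1.63). Ifit2 was at 10.11, 9.95 and 10.23, against 10.16 and 10.24 on the wild-type arrays (-0.10, 95% interval -0.37 to 0.16).

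Null arrays also differed among themselves. Null replicate 3 was the lowest null array for Gbp3, Gbp6 and Ifi47. Gbp6 was at 6.67, 6.83 and 5.26 on the null arrays, against 5.07 and 6.06 on the wild-type arrays. Gbp3 was at 8.72, 9.24 and 7.72, against 7.41 and 8.28 on the wild-type arrays. Ifi47 was at 8.58, 8.79 and 7.23, against 7.02 and 7.59 on the wild-type arrays. For all 3 genes the third null replicate lay between the wild-type arrays, and the first and second lay above both. Ifi27l2a ran in another order, at 6.92, 5.76 and 6.89 on the null arrays, against 4.61 and 6.05 on the wild-type arrays.

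The comparison of null with heterozygous cells asks whether loss of the second allele adds to loss of the first. It shares its heterozygous arrays with the first comparison. Of the 36 genes, 0 rose and 3 fell in null cells (limma adjusted p), against 5% and 3.96% of all genes, with a median log2 difference of -0.45, against 0.04 for all genes. All null arrays lay above both heterozygous arrays in 6 genes and below them in 10, against 25.7% and 17.9% of all genes. At an unadjusted p under 0.05, 3 were higher and 8 lower, against 16.5% and 12.1% of all genes. The median was -0.01 without heterozygous replicate 1 and -0.73 without heterozygous replicate 2. Ifitm3 fell by 2.29 ± 0.33 on the log2 scale (SE, adjusted p = 0.0149), Ifitm2 fell by 1.08 ± 0.10 (adjusted p = 0.00485) and Gbp2 fell by 1.73 ± 0.39 (adjusted p = 0.0425). In each of the 3 genes every null array lay below both heterozygous arrays. The number that fell was between 1 (without heterozygous replicate 1, 0.714% of all genes) and 6 (without heterozygous replicate 2, 3.4% of all genes), where Gbp7 (-1.32), Irf7 (-1.09) and Oas1a (-1.63) also passed. Without heterozygous replicate 1 the call of Ifitm3 ended (log2 difference -1.75, adjusted p = 0.0661) and so did that of Gbp2 (-1.03, adjusted p = 0.161), while that of Gbp2 also ended without either wild-type array or any 1 null array (adjusted p between 0.0719 and 0.116).

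Usp18, at 6.66, 6.46 and 6.16 on the null arrays, against 8.68 and 7.22 on the heterozygous arrays, did not overlap either (log2 difference -1.52 ± 0.52, adjusted p = 0.108). Ifih1, at 6.91, 6.75 and 6.77, against 8.42 and 7.32 on the heterozygous arrays, was similar (-1.06 ± 0.39, adjusted p = 0.127). Ifit2 was at 10.11, 9.95 and 10.23, against 9.70 and 9.71 on the heterozygous arrays (0.39 ± 0.11, adjusted p = 0.0715). Irf2bp1 was at 7.05, 7.01 and 7.15, against 6.75 and 6.69 on the heterozygous arrays (0.35 ± 0.09, adjusted p = 0.0608). Mx2 and Ifitm1 differed by -0.22 (95% interval -0.58 to 0.13) and -0.08 (95% interval -0.50 to 0.34). Across the genotypes, the order of means was highest in heterozygous, then null, then wild-type cells in 23 of the 36 genes, an order that 20.1% of all genes had. For many of these genes neighbouring means do not differ beyond the spread of their arrays.

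The 12 genes that did not pass the filter on dim genes were Gbp2b, Gbp8, Ifi202b, Ifi204, Ifi209, Ifi44l, Ifitm6, Irf4, Mx1, Oas1c, Oas1h and Oas3. Their values lay between 2.58 and 5.63, and nothing can be said of their change at this brightness. A range above 1 over the 7 arrays was seen in 3 of them, Gbp8, Ifi202b and Gbp2b, each highest on heterozygous replicate 1. Gbp8 was at 3.40, 3.23 and 3.05 on the null arrays and at 5.47 and 3.11 on the heterozygous arrays, against 2.58 and 2.89 on the wild-type arrays. Ifi202b, a DNA-binding protein of the p200 family, was at 4.01, 4.35 and 3.76 on the null arrays and at 5.63 and 4.02 on the heterozygous arrays, against 3.90 and 3.90 on the wild-type arrays. Gbp8 and Ifi202b passed the limit only on heterozygous replicate 1, so neither was tested. Irf4, a factor of lymphoid cells, was at 3.94, 4.05 and 4.0 on the null arrays and at 3.94 and 4.01 on the heterozygous arrays, against 4.10 and 3.78 on the wild-type arrays. Mx1, whose coding sequence is disrupted in many laboratory mouse strains, stayed between 3.66 and 3.92 on the 7 arrays.

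Other genes of the pathway were counted in lists made by role. Of 16 genes for interferons, their receptors and JAK kinases, 15 were on the array and 8 were tested, of which 0 passed the limma threshold in any comparison and 1 had an unadjusted p under 0.05, Ifnar1 in null against heterozygous cells (0.35, adjusted p = 0.118). The 7 that were too dim were all of the interferon genes listed, Ifna1, Ifna2, Ifna4, Ifna5, Ifnab, Ifnb1 and Ifng. Ifnb1 was at 4.27, 4.11 and 4.11 on the null arrays and at 4.0 and 3.79 on the heterozygous arrays, against 4.17 and 4.05 on the wild-type arrays. Of 20 nucleic acid sensing genes, 14 were on the array and 8 were tested. In heterozygous against wild-type cells 1 rose, the nucleic acid sensor Zbp1 (0.78 ± 0.16, adjusted p = 0.0308), and 0 fell (4.2% and 5.95% of all genes). In the other comparisons 0 passed. Zbp1 was at 5.32 and 5.02 on the heterozygous arrays, against 4.57 and 4.21 on the wild-type arrays. Both wild-type values lay under the limit for dim genes (4.84 and 4.82), so the exact size of the difference is uncertain. Only 3 arrays were above the limit, both heterozygous arrays and, barely, null replicate 3 (4.88 against 4.86). Zbp1 thus entered the test mainly through the group in which it was high.

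Of 50 other interferon-induced genes, 40 were on the array and 31 were tested. In heterozygous against wild-type cells 1 rose, the aminopeptidase Lap3 (0.59 ± 0.14, adjusted p = 0.0436), and 0 fell (4.2% and 5.95% of all genes), at a median difference of 0.61. In null against heterozygous cells 1 fell (3.96% of all genes), the membrane scramblase Plscr1 (-0.89 ± 0.18, adjusted p = 0.0336), and in null against wild-type cells 0 passed. Plscr1 was at 4.67 and 4.77 on null replicates 1 and 2, under their limits for dim genes (4.95 and 4.86). The exact size of its difference is thus uncertain. The 31 tested genes followed the same arrays as the interferon response genes. The median deviation of these 31 genes from their 7-array mean was highest on heterozygous replicate 1 (0.49) and lowest on wild type replicate 1 (-0.40). Bst2, which tethers viruses to the cell, was at 6.83, 6.28 and 5.90 on the null arrays and at 8.42 and 6.83 on the heterozygous arrays, against 5.33 and 6.41 on the wild-type arrays. Its highest and lowest arrays were thus those of Usp18 too. Among 11 tested inhibitors of the pathway, 2 rose and 2 fell in heterozygous against wild-type cells (4.2% and 5.95% of all genes). Socs3, a feedback inhibitor of JAK kinases, rose by 1.69 ± 0.21 (adjusted p = 0.00934) and Pias4 by 0.45 ± 0.10 (adjusted p = 0.0408), and Pias1 fell by 0.72 ± 0.12 (adjusted p = 0.0192) and Pias3 by 0.53 ± 0.13 (adjusted p = 0.044). In null against heterozygous cells Socs3 fell (-1.62 ± 0.20, adjusted p = 0.00942) and Pias1 rose (0.60 ± 0.11, adjusted p = 0.0281). Socs3 was at 9.11, 9.17 and 8.75 on the null arrays and at 10.46 and 10.80 on the heterozygous arrays, against 9.17 and 8.72 on the wild-type arrays, so it was highest on heterozygous replicate 2 and not on replicate 1.

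Markers of microglia and macrophages, cells that the sort for green fluorescence would leave out if they lack the marker, moved with the heterozygous label. Of 25 listed, 23 were on the array and 20 tested. In heterozygous against wild-type cells 16 of the 20 rose and 0 fell (4.2% and 5.95% of all genes). In null against heterozygous cells 0 of the 20 rose and 11 fell (5% and 3.96% of all genes). Their summed intensity was 1164 to 1705 on the null arrays and 2756 to 3575 on the heterozygous arrays, against 1018 to 1341 on the wild-type arrays. Of the defining markers, Aif1 and Itgam were too dim to test. Ptprc was at 4.33, 4.58 and 4.53 on the null arrays and at 5.88 and 5.62 on the heterozygous arrays, against 4.32 and 4.38 on the wild-type arrays. Cd68 was at 4.39, 4.71 and 4.53 on the null arrays and at 5.50 and 5.66 on the heterozygous arrays, against 4.71 and 4.60 on the wild-type arrays. In both genes the heterozygous arrays lay above all others. Ptprc, Cd68 and Cd14, which are among the 20, passed the limit for dim genes only on the 2 heterozygous arrays. They thus entered the test through the group in which they were high, and their values on the other arrays lay under the limit. Cx3cr1 was at 5.50, 5.50 and 5.43 on the null arrays and at 6.08 and 6.16 on the heterozygous arrays, against 5.49 and 5.19 on the wild-type arrays. Csf1r was at 7.48, 7.74 and 7.65 on the null arrays and at 8.58 and 9.13 on the heterozygous arrays, against 7.76 and 7.38 on the wild-type arrays.

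Within the genotypes the macrophage markers and the interferon response genes ran in different orders. The median deviation of the 20 markers from their 7-array mean was 0.63 on heterozygous replicate 1 and 1.16 on replicate 2, whereas that of the 36 interferon response genes was 0.62 and 0.04. On wild type replicates 1 and 2 it was -0.24 and -0.53 for the markers, whereas it was -0.54 and -0.08 for the interferon response genes. The part of these cells in the differences described above was not tested. Nor was that of Xist and Y-linked transcripts, mixed on heterozygous replicate 1 and unlike between the wild-type arrays. Markers of T, B and NK cells were mostly too dim, with 3 of 13 on the array tested and 0 called in any comparison. Of 9 oligodendrocyte-progenitor markers, 5 fell and 1 rose in heterozygous against wild-type cells, and of 8 astrocyte markers 3 rose and 0 fell. Of all genes, 5.95% fell and 4.2% rose. The astrocyte marker Aldh1l1 passed the limit for dim genes only on the heterozygous arrays.

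**Figure D5:**
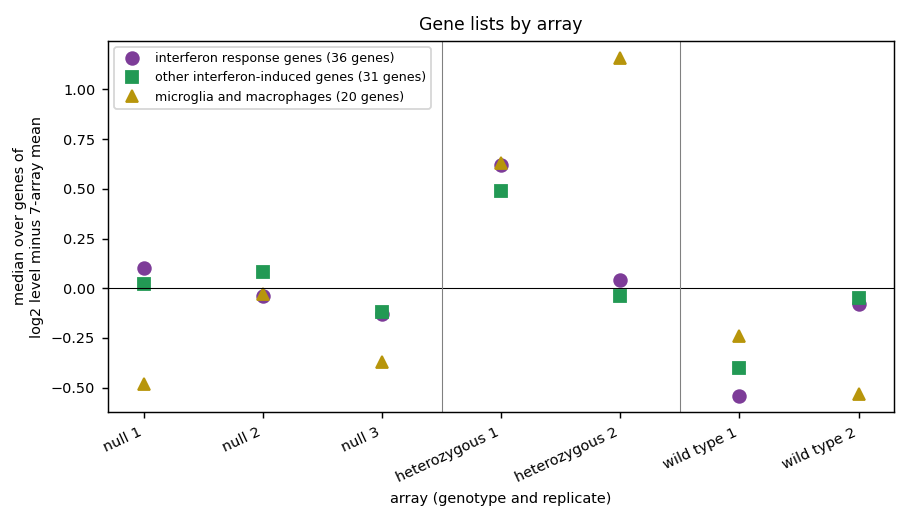
Median over the genes of a list of the log2 level minus the gene's mean over the 7 arrays, for null, heterozygous and wild-type arrays from left to right. Interferon response genes (36, circles) and other interferon-induced genes (31, squares) are highest on heterozygous replicate 1 and lowest on wild type replicate 1, and microglia and macrophage markers (20, triangles) are highest on heterozygous replicate 2.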

How the data were processed

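The deposited values are log2 expression levels of Affymetrix 1-colour arrays made from 75 ng of RNA with a kit that labels the 3' end of transcripts, per the labels' protocols. RMA and Partek 6.6 were used, per the submitters' processing notes. RMA brings the arrays to a common distribution, so a shift of all genes cannot be seen. Of 22690 probe sets, 64 controls were left out. The platform annotation gave 1 gene for 20380 probe sets, several for 691 and none for 1555.

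A gene was tested if 2 or more arrays held it above their own 30th percentile (9243 of 12393). In R 4.3.3, limma 3.58.1 fitted genotype means to the 7 arrays together, which left 4 residual degrees of freedom, with two-sided moderated tests, Benjamini-Hochberg adjustment over all genes tested and a threshold of 0.05. The fit was tested on simulated data. The number of arrays limits the precision. Replicate numbers were not taken to pair samples. Per-array values are given for genes past the threshold, the 14 others with the widest range, Stat2, the Irf genes and otherwise missing families. From the other lists, members past the threshold were named, up to 6 a list. Per-array values of Ifnb1, Bst2, Ifitm1, Ifitm10, Gbp8 and Mx1, and Ifnar1, were chosen after their values were seen. The members and all lists were chosen with earlier results of these data known. Alternatives were other filters, probe set means, variance settings, a replicate block, centring, and leaving out arrays.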

Additional observations from a re-analysis of the deposited data

How the results depend on the processing

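In null against wild-type cells, 0 genes of the list were called, higher or lower, under each of the 16 alternatives, and the median kept its sign (0.11 to 0.52 without 1 array). In heterozygous against wild-type cells, the 5 genes called higher became 3 with the filter at the 50th percentile (24 genes tested), 1 with only the 2 groups compared, 1 with an unmoderated model, and 1 to 9 without 1 array. The 1 gene called lower, Ifit2, became 0 with no filter, with the 2 groups alone, unmoderated, with arrays centred on their median, and 0 to 1 without 1 array. In null against heterozygous cells, the 3 genes called lower became 0 unmoderated and 1 to 6 without 1 array. With heterozygous replicate 1 and null replicate 1 both left out for their mix of Xist and Y-linked RNA (added after seeing the data; the lone heterozygous array is assumed to vary like the others), these counts were 0, 0 and 0, as were those over all 9243 genes, and the medians were 0.46 for heterozygous against wild type and -0.08 for null against heterozygous. The median of heterozygous against wild type was 0.49 with no filter, 1.30 with the filter at the 50th percentile and 0.46 to 0.97 without 1 array. That of null against heterozygous was -0.72 with the filter at the 50th percentile and -0.73 to -0.01 without 1 array.

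Samples that share a replicate number did not regularly deviate together (correlations of deviations over genes between -0.414 and 0.111, and over the 36 interferon response genes between -0.71 and 0.687). The highest of these, 0.687, was that of heterozygous replicate 1 and null replicate 1. In a genotype with 2 arrays the deviations are equal and opposite, so these correlations cannot decide whether samples are paired. With a replicate block, 3 genes were called higher and 0 lower in heterozygous against wild-type cells, and 0 lower in null against heterozygous cells. Over all genes, the block gave 109 higher and 108 lower in heterozygous against wild type (388 and 550 without it), and 6 higher and 19 lower in null against heterozygous (462 and 366 without it). Of single-gene results under these alternatives, 1624 stayed on the same side of the threshold, 58 fell below it, 10 passed it, and no called value changed sign. Most of the 1624 were results of genes that were not called as reported and stayed so. Only called results could fall below, so the 58 are to be read against the few called genes alone, whose calls were often lost. The causes were not tested. Values near the 30th percentile of an array, such as Ifitm2 in wild type, set a limit on how exact a fold is.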
